A study of Mus musculus with 8 samples.

Results

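The BCL2 family of apoptosis regulators was followed in cultured mouse myoblasts after Pvt1 silencing. The members were 10 genes, namely Bcl2, Bcl2l1, Mcl1, Bax, Bak1, Bid, Bad, Bbc3, Pmaip1 and Bcl2l11. They were found on the array by gene name, with control spots left out, which gave 10 of 37074 gene names and 22 probes of 56605, each 60 bases long. Of these, 19 probes could be tested, and every one of the 10 genes had at least 1 of them. The other 3, a probe of Bid and a pair of Bcl2l11 probes, did not rise well above background on a single array and have no value here. No member probe was saturated. The array names of the 19 member probes that carry a RefSeq transcript all matched the RefSeq gene table (GRCm38.p6) under the same symbol.

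RNA came from proliferating C2C12 cells, a mouse myoblast line, at passage 10, and was hybridised to 8 one-colour Agilent arrays. In 4 cultures the cells had been transfected, using Lipofectamine 2000, with antisense GapmeRs against Pvt1, a long non-coding RNA. The other 4 cultures received negative control GapmeRs with the same reagent, so every culture had been transfected. A GapmeR is a short DNA strand flanked by locked nucleic acids that directs RNase H to the RNA it pairs with. The labels call the 4 cultures of a group biological replicates and name a pair of Pvt1 GapmeRs, without saying which culture received which. All samples are 1 cell line, so the p-values measure the spread between its cultures.

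BCL2 family proteins decide whether the outer mitochondrial membrane is opened, the step that commits a cell to the intrinsic route of apoptosis. Survival proteins (Bcl2, Bcl2l1, which encodes BCL-XL, and Mcl1) bind and restrain the other classes. Bax and Bak1 are the effectors that form the pore, through which cytochrome c leaves to assemble the apoptosome and start the caspases. BH3-only proteins (Bid, Bad, Bbc3, also called PUMA, Pmaip1, also called NOXA, and Bcl2l11, also called BIM) sense damage or loss of growth signals and either block the survival proteins or switch on the effectors. In muscle the balance between these classes bears on the loss of myoblasts during differentiation and of nuclei during atrophy.

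The agents used for silencing are shown first, 5′ to 3′, because the members were compared with them.
Pvt1_1: accgtagtagagttaa
Pvt1_3: agtcaacgcttcacat
The next 5 probes lie in protein-coding sequence, as read from knowledge of these genes since no annotation of build mm9 was used here, and are shown because each gave a called difference from another probe of its gene, 3 of them near background. Capitals mark the longest stretch that could pair with either GapmeR.
Bcl2, chr1:108608970-108609029, minus strand: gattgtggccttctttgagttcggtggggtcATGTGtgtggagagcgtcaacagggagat
Bax, chr7:52721469-52721624, minus strand: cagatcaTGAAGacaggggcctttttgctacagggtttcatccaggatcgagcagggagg
Bcl2l1, chr2:152655618-152655677, minus strand: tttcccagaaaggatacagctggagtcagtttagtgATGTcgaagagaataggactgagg
Bcl2l1, chr2:152655185-152655244, minus strand: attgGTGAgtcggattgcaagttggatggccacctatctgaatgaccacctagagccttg
Bcl2l11, chr2:127972893-127983988, plus strand: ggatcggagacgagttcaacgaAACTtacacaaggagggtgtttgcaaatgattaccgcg
The Bcl2 probe covers part of the BH1 motif, and the Bcl2l11 probe starts within the BH3 motif, the helix by which BIM binds its partners. The Bax probe spans 156 bases of the genome and the Bcl2l11 probe 11096, so both cross an exon junction. Over all 22 member probes, the longest stretch complementary to a GapmeR was 7 bases, in 2 of them, and 4.43% of the probes on the array hold a stretch at least as long.

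The other end of the transcripts is marked by the polyadenylation signal AATAAA, searched as those letters on the transcribed strand. It was held by 3 of the 22 member probes, against 9.77% of all probes on the array, and ATTAAA by none, which says only that those letters are not in these windows. A stretch of 30 bases around the signal is shown for each, with the signal in capitals and the position of the whole probe.
Bcl2l1, chr2:152606404-152606463, minus strand: gtgcagttcagtAATAAAtggtgtctgtga
Mcl1, chr3:95467049-95467108, plus strand: ttctgaagagaaAATAAAcctttttccccc
Bad, chr19:7026323-7026382, plus strand: aacgtgctttatAATAAAgcctgcgcatgt
For Bcl2l1 and Mcl1 these are the probes to which those nearer the 5′ end are compared below, while Bad had no other probe.

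As a check of the labels, the brightest probe of Pvt1 fell by 2.86 on the log2 scale (SE 0.32, limma adjusted p 0.000682). Of 8 myoblast markers, 6 were well above background on every array of both groups, among them desmin and Myod1, while Myf5 was not on any array. Of the 8, 4 were called lower after silencing, beside 13.3% of all genes by their brightest probe. Among them were Myod1, 3.87-fold lower (limma adjusted p 0.0013), and desmin, 2.54-fold lower (0.00374). The summed signal of the 8 was between 153439 and 177031 on control arrays and between 105403 and 135508 on silenced arrays. Its part in the values below was not tested. A list of 30 liver transcripts separated the groups. Its summed signal was between 1447 and 2261 on control arrays and between 8695 and 11139 on silenced arrays, where 10 of the 30, including albumin, were well above background on all 4 arrays and on no control array. Whether that material bears on any value below was not tested. Silenced replicate 4 was the dimmest array, with 36.8% of spots well above background against 42.6% to 45.4% on the other 7, and control replicate 3 had the lowest mean correlation with its group (0.960 against at least 0.980).

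Pvt1 silencing was accompanied by changes at 4 of the 19 tested member probes. One probe each of Bcl2, Bax and Bcl2l1 fell and another Bcl2l1 probe rose. The remaining 15 were not called, that is, their limma p-value adjusted over all tested probes was at least 0.05. The 3 falls among 19 stand against 18.4% of all 28649 tested probes, and the 1 rise against 4.79%. All 4 silenced arrays lay below all 4 control arrays at 3 member probes (20.3% of all probes) and above them at 1 (4.7% of all probes). Values below are log2 signal after quantile normalization, and a change is silenced minus control. The median change was -0.01 over the member probes and -0.19 over all probes. Cyclic loess, which set the median of all probes to 0.02, called 2 of the 19 member probes lower and 3 higher, beside 18.4% and 18.9% of all probes under that scaling. With 1 array left out, falls numbered 1 without control replicate 2 (11.3% of all probes) or control replicate 4 (11%). Rises numbered 2 without control replicate 3 (6.09% of all probes) and 3 without silenced replicate 4 (13%).

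**Figure D1:**
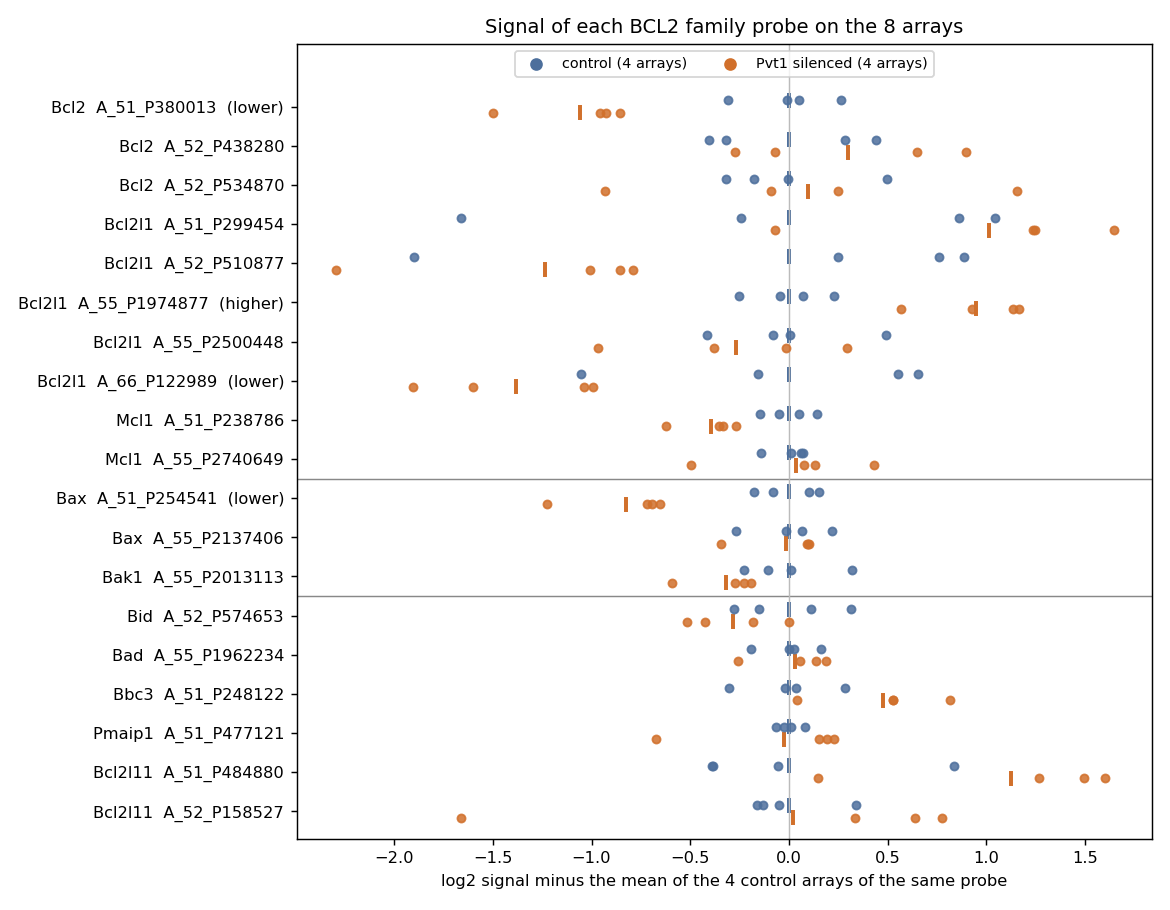
Signal of the 19 tested member probes on each array, as log2 signal minus the mean of the control arrays of that probe. Points are arrays (4 control, 4 silenced), bars are group means, and horizontal lines part survival proteins, effectors and BH3-only proteins. The groups stand clear of each other for Bcl2 A_51_P380013, Bcl2l1 A_55_P1974877, Mcl1 A_51_P238786 and Bax A_51_P254541, while most other probes overlap.

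Among the survival proteins, Bcl2 is the founding member and holds BAX and the BH3-only proteins in check. Its brightest probe, in coding sequence (A_51_P380013), read 8.81, 9.11, 9.38 and 9.17 on control arrays and 8.16, 8.26, 8.19 and 7.62 on silenced arrays. No silenced value reached a control value. The fall was 1.06 (SE 0.22, limma adjusted p 0.00905), a signal 2.08-fold lower, and -0.87 relative to the median of all probes. It held in 19 of 20 alternative settings, with changes between -1.17 and -0.74. The other 2 Bcl2 probes gave no such fall. One lies 1660 bases further on (A_52_P438280) and averaged 5.76 ± 0.42 over the controls and 6.06 ± 0.56 over the silenced arrays (SD, n = 4 each), a change of 0.30 with a 95% interval from -0.42 to 1.02. Only 2 arrays, both silenced, had this probe well above background. The other lies 174177 bases away on the genome (A_52_P534870), on the 3′ side, and read 8.14 ± 0.36 (SD, n = 4) and 8.23 ± 0.86 (SD, n = 4), a change of 0.09 with an interval from -0.80 to 0.99.

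Bcl2l1 had 5 tested probes, and they pointed in different directions. The brightest, which holds the AATAAA signal shown above (A_55_P1974877), read 12.69, 13.02, 13.17 and 12.90 on control arrays and 13.87, 14.08, 14.11 and 13.51 on silenced arrays. Every silenced array was above every control array. The rise was 0.95 (SE 0.21, limma adjusted p 0.0119), a signal 1.93-fold higher, and it held in 19 of 20 alternative settings with changes between 0.86 and 1.15. A dimmer probe (A_66_P122989) was the one that fell. It read 7.91, 8.72, 7.01 and 8.62 in controls and 7.03, 7.07, 6.46 and 6.16 in silenced cells, where control replicate 3 lay below 2 silenced arrays. That fall was 1.38 (SE 0.39, limma adjusted p 0.031), a signal 2.61-fold lower, and its call was lost in 10 of 20 alternative settings. These include leaving out control replicate 1, 2 or 4 or silenced replicate 3 or 4, where the change was between -1.44 and -1.17. The array file places 47 bases of this probe at chr2:152606400-152606446, overlapping the brightest probe by 43 bases. The longest run of letters the 2 probe sequences share is however 5 bases, so its position is uncertain.

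The other 3 Bcl2l1 probes lie 48781 to 49326 bases to the 5′ side and were dim. The probe in coding sequence at chr2:152655185-152655244 (A_52_P510877) read 7.17, 7.68, 5.02 and 7.81 in controls and 6.06, 6.13, 5.91 and 4.62 in silenced cells. Control replicate 3 stood below 3 silenced arrays, and the remaining control arrays stood above all of them. It was well above background on 3 control arrays and no silenced array, and the computed change of -1.24 was not called (SE 0.60, limma adjusted p 0.170). Leaving out control replicate 3 made it -1.87, which was called (limma adjusted p 0.00758). The second coding probe (A_55_P2500448) read 6.11 ± 0.37 (SD, n = 4) and 5.84 ± 0.54 (SD, n = 4), and was well above background on 1 array of each group. Its change was -0.27 with an interval from -0.95 to 0.42, and its sign turned under cyclic loess. The probe nearest the 5′ end (A_51_P299454) read 5.59 ± 1.25 (SD, n = 4) and 6.60 ± 0.75 (SD, n = 4), a change of 1.01 with an interval from -0.31 to 2.34. It was 0.46 without control replicate 3, the lowest array, and 0.36 with normexp.

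Mcl1, a short-lived survival protein that mainly restrains BAK1 and the BH3-only proteins, was not called by either probe. The probe on the 5′ side (A_51_P238786) read 13.55, 13.84, 13.65 and 13.75 in controls and 13.36, 13.34, 13.43 and 13.08 in silenced cells. These groups did not overlap, but the change of -0.39 (SE 0.18, limma adjusted p 0.152) missed the threshold and was -0.20 relative to the median of all probes. With the values of the authors' series table it was -0.24 and was called (limma adjusted p 0.0129). The probe with the AATAAA signal, 194 bases further on (A_55_P2740649), read 13.73 ± 0.10 (SD, n = 4) and 13.76 ± 0.39 (SD, n = 4). Its change was 0.04 with an interval from -0.48 to 0.55.

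Of the effectors, Bax was measured by a pair of bright probes that differed. The junction-crossing probe (A_51_P254541) read 12.48, 12.57, 12.75 and 12.80 in controls and 11.96, 11.93, 11.998 and 11.43 in silenced cells. All silenced arrays were below all control arrays. The fall was 0.82 (SE 0.21, limma adjusted p 0.0189), a signal 1.77-fold lower and -0.63 relative to the median of all probes. Its call was lost in 4 of 20 alternative settings, without control replicate 2 (change -0.85, limma adjusted p 0.0523), without control replicate 4 (change -0.77, 0.0696), with a block for the replicate number (0.0637) and with one for the slide row (0.0835). The brighter probe, on the 3′ side at chr7:52717122-52717181 (A_55_P2137406), read 12.78, 13.12, 13.27 and 13.04 in controls and 13.15, 13.15, 13.16 and 12.71 in silenced cells. There the silenced arrays lay within or below the control range, and the change was -0.01 with an interval from -0.47 to 0.44. Bak1, the second effector, had 1 probe, which read 14.76 ± 0.23 (SD, n = 4) and 14.43 ± 0.18 (SD, n = 4). Its change of -0.32 was not called, with an interval from -0.78 to 0.13.

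None of the 5 BH3-only genes was called by any probe in limma, beside 18.4% of all probes lower and 4.79% higher. At an unadjusted p under 0.05 there was 1, a Bcl2l11 probe, which was higher. Over all probes 27% were lower and 9.34% higher at that limit. Bbc3, which p53 induces after DNA damage, read 10.06, 10.40, 10.34 and 10.65 in controls and 10.89, 10.89, 11.18 and 10.40 in silenced cells. The first 3 silenced arrays were above every control and silenced replicate 4 was not. That is a difference of 0.48 (SE 0.23, limma adjusted p 0.163), not called. Leaving out silenced replicate 4 made it 0.62, which was called (limma adjusted p 0.0375), as it was under cyclic loess, with the values of the authors' series table and without masking of dim spots (0.65 to 0.70).

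Bcl2l11 encodes BIM, which binds all survival proteins and is made in several splice forms. Its junction-crossing coding probe (A_51_P484880) read 5.97, 6.30, 7.19 and 5.97 in controls and 7.63, 7.86, 7.96 and 6.51 in silenced cells. Of the silenced arrays, 3 lay above every control array, and it was well above background on 2 control and 4 silenced arrays. The change of 1.13 (SE 0.38, limma adjusted p 0.0608) was not called, with an interval from 0.27 to 1.99. It was called in 10 of 20 alternative settings, among them without control replicate 3 (1.41, limma adjusted p 0.0178) and without silenced replicate 4 (1.45, 0.0108). The brighter Bcl2l11 probe further 3′ (A_52_P158527) read 9.68, 10.18, 9.71 and 9.79 in controls and 10.17, 10.61, 10.48 and 8.17 in silenced cells. Silenced replicate 4 was the lowest of the 8 values and the change was 0.02, with an interval from -1.06 to 1.11.

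The remaining BH3-only genes had 1 tested probe each and small changes. Bid, which caspase-8 cleaves to join the death receptor route to mitochondria, read 12.61 ± 0.27 (SD, n = 4) and 12.33 ± 0.23 (SD, n = 4), a change of -0.28 with an interval from -0.77 to 0.20. Bad, held inactive by growth factor signalling, read 13.32 ± 0.15 (SD, n = 4) and 13.35 ± 0.20 (SD, n = 4), a change of 0.03 with an interval from -0.40 to 0.46. Pmaip1, which mainly binds MCL1, read 11.18, 11.15, 11.22 and 11.29 in controls and 11.36, 11.40, 11.44 and 10.54 in silenced cells. Its first 3 silenced arrays were above and its last below every control, and the change was -0.02 with an interval from -0.56 to 0.51. The sign of the change turned in some settings for Bad and Pmaip1, so no direction is given for them.

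**Figure D2:**
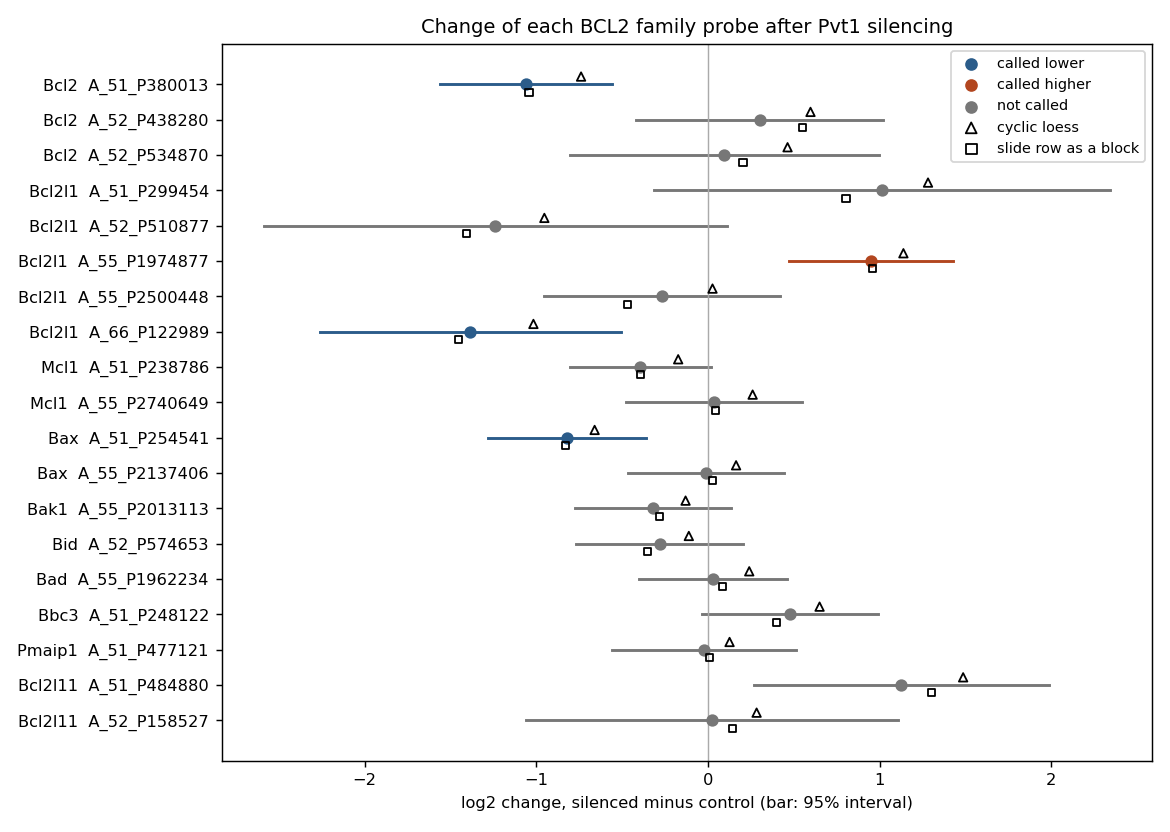
Change of each tested member probe (silenced minus control, log2), with 95% intervals from limma. Open triangles give the change under cyclic loess and open squares the change with the slide row as a block. Blue probes were called lower, red higher and grey not called, and the squares lie close to the main changes of the called probes (-1.04 against -1.06 for Bcl2, 0.96 against 0.95 for the Bcl2l1 probe that rose).

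All 8 arrays lay on 1 slide, in an upper row with 3 control and 1 silenced arrays and a lower row with 1 and 3. With the row as a block no member probe was called, beside 8.98% of all probes lower and 1.86% higher. At an unadjusted p under 0.05, 3 were lower and 2 higher, beside 20.9% and 6.89% of all probes. The change of Bcl2 (A_51_P380013) was -0.94 within the upper row and -1.15 within the lower, that of Bax (A_51_P254541) -0.64 and -1.02, and those of Bcl2l1 0.91 and 1.0 (A_55_P1974877) and -0.85 and -2.05 (A_66_P122989). A pair of dim Bcl2l1 probes differed most between the rows, with -0.56 and -2.25 (A_52_P510877) and 1.53 and 0.07 (A_51_P299454).

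Where probes of a member disagreed, the difference between them was tested itself, array by array, against the brightest probe of the gene. The members gave 9 such pairs, of which 7 were called, where 38.2% of 9268 pairs of all genes were. In 8 of the 9 the array file gives separate positions, so that a 5′ and a 3′ probe could be told apart. Of these 8, the probe nearer the 5′ end moved lower in 5 and higher in 1, and 2 were not called. In 3 of those 5 a probe was not well above background on every array, so these differences are not exact and the count is a description. The pairs of Bcl2 share its brightest probe, as do those of Bcl2l1, so the pairs are not independent. Over all genes the 5′ probe moved lower in 30.9% of 8937 such pairs and higher in 8.1%. Without control replicate 1, 2 or 4, 4 of the 9 member pairs were called. When all tested probes of a gene were averaged instead, none of the 10 members was called by limma, with changes of -0.22 for Bcl2, -0.18 for Bcl2l1 and -0.42 for Bax (adjusted p 0.651, 0.772 and 0.193).

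In Bax the 5′ minus 3′ difference was -0.31, -0.54, -0.52 and -0.23 on control arrays and -1.19, -1.22, -1.16 and -1.28 on silenced arrays. The groups were apart, and the 5′ probe moved 0.81 lower (SE 0.16, limma adjusted p 0.00469). For Bcl2 the coding probe moved -1.36 (SE 0.27, limma adjusted p 0.00522) relative to the probe 1660 bases on, and -1.15 (SE 0.32, limma adjusted p 0.0215) relative to the distant 3′ probe. No control array had the nearer partner well above background, so its log difference is not exact. The call against the distant probe was lost without control replicate 1, 2 or 4, where the difference was between -1.16 and -1.08. The array design names a different transcript for each Bcl2 probe. Whether these differences are of position or of transcript form was not tested.

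For Bcl2l1, both coding probes moved lower than the brightest 3′ probe, by -1.22 (A_55_P2500448, SE 0.24, limma adjusted p 0.0047) and -2.19 (A_52_P510877, SE 0.64, limma adjusted p 0.0255). Each rests on a coding probe near background, well above it on 1 array of each group for A_55_P2500448, and neither pair passed the stricter filter. The call of the second was lost without control replicate 1, 2 or 4 or silenced replicate 3 or 4 (-2.19 to -1.88). For these coding probes the array design names other transcripts than for the brightest probe, and the part of that was not tested. The probe nearest the 5′ end (A_51_P299454) differed from the brightest by 0.06 (interval from -1.30 to 1.43), or by -0.57 without control replicate 3 and -0.58 with normexp, and the probe of uncertain position (A_66_P122989) moved by -2.33 relative to it (SE 0.42, limma adjusted p 0.0033). In Mcl1 the difference of -0.43 was not called (SE 0.19, limma adjusted p 0.107), except without both arrays that stood apart (-0.57, 0.033). Bcl2l11 went the other way, with the 5′ coding probe, well above background on 2 of the control arrays so that the difference is not exact, moving higher by 1.11 (SE 0.36, limma adjusted p 0.0392), a call lost when any array but control replicate 3 or silenced replicate 2 was left out (0.87 to 1.16).

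**Figure D3:**
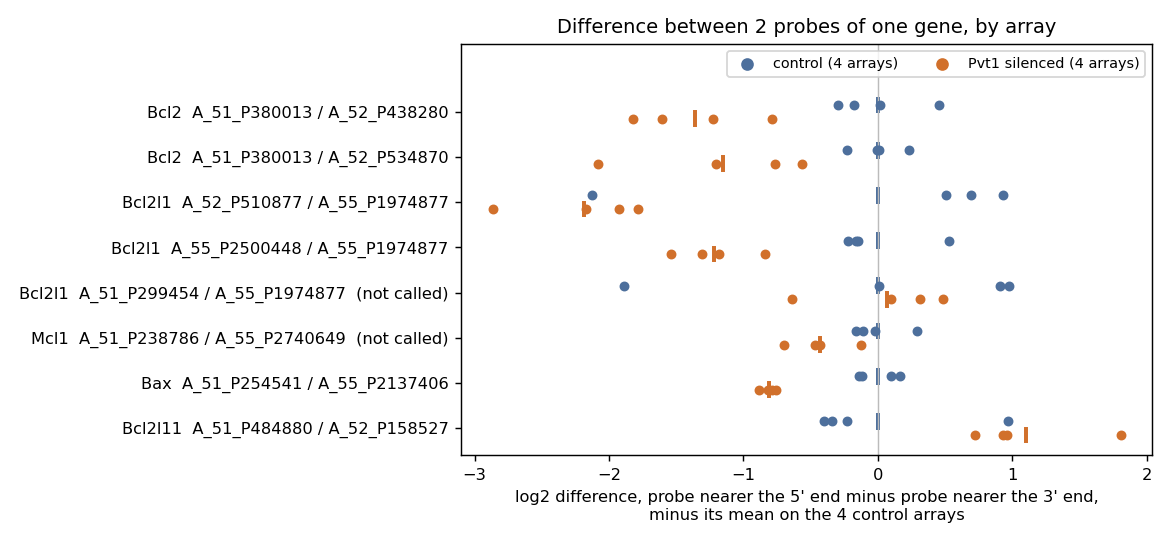
Difference in log2 signal between the probe nearer the 5′ end (named first) and the probe nearer the 3′ end of one gene, minus the mean of that difference on the 4 control arrays. Points are arrays and bars are group means. In Bax, in Bcl2 and for Bcl2l1 A_55_P2500448 all silenced arrays lie left of the control arrays, while for Bcl2l11 they lie to the right of 3 controls.

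The wider family held 14 further genes, of which 7 had a tested probe: the survival gene Bcl2l2, the effector relative Bok, the BH3-only genes Bik and Bmf, and Bcl2l12, Bcl2l13 and Bcl2l15. By their brightest probe none was called by limma, against 13.3% of 16253 genes lower and 6.44% higher. At an unadjusted p under 0.05, 3 were lower and none higher, beside 20.5% and 12.3% of all genes. Among the alternative settings, the shift to the 75th percentile called 3 of the 7, all lower (17.7% of all genes were lower in that setting). Cyclic loess called 1 lower and 1 higher, beside 13.6% and 23.8% of all genes. The methods' t-test after adjustment called none, beside 7.48% lower and 2.68% higher. Without control replicate 3, and with the robust prior, 1 was called lower, beside 14.7% and 14.9% of all genes. A dimmer probe of Bcl2l13 fell by 0.82 (limma adjusted p 0.0201), while its brightest changed by -0.39. Without both arrays that stood apart, control replicate 3 and silenced replicate 4, 2 were called lower and 1 higher, beside 17.9% and 25.2% of all genes. The median change of the 7 genes was -0.50 (-0.28 under cyclic loess and -0.23 with the authors' series table). It was 0.0045 for the 10 members by their brightest probe and -0.06 for all genes.

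Apoptosis pathway genes around the family were described next, each by its brightest probe. Of 46 genes, 44 were tested, 10 fell, 4 rose and 30 were not called, with a median change of -0.19 (-0.07 under cyclic loess, -0.05 with the authors' series table and -0.03 without both arrays that stood apart). The 10 falls among 44 stand beside the 13.3% and the 4 rises beside the 6.44% given above. This split depended on the scaling, since cyclic loess called 9 lower and 10 higher, beside 13.6% and 23.8% of all genes under that scaling. It also depended on the probe, since 10 of the 30 genes not called had another probe that was, lower in 8 and higher in 2. With 1 array left out, the falls numbered 5 without control replicate 2, beside 7.72% of all genes. They numbered 6 without control replicate 4 (7.47%) or silenced replicate 3 (11.1%). The rises numbered 2 without control replicate 1, 2 or 4 or silenced replicate 1, 2 or 3, beside 3.19% to 4.33% of all genes. Without silenced replicate 4 they numbered 8, beside 16.8%. With the slide row as a block, 4 were lower and 2 higher, beside 5.61% and 2.47% of all genes.

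In the caspase arm, 15 genes were tested, 1 rose and 2 fell, beside 6.44% and 13.3% of all genes. Casp9, the initiator caspase of the apoptosome, was 9.97 to 10.38 in controls and 10.94 to 11.79 in silenced cells. Its rise was 1.15 (SE 0.23, limma adjusted p 0.00732) and held in all 20 alternative settings. Dffb, the nuclease that cuts DNA once caspases free it, was well above background on 3 control and no silenced arrays, which puts the control signal at least 1.27-fold above the silenced one (limma adjusted p 0.0158). Endog, a mitochondrial nuclease, fell by 0.72 (SE 0.21, limma adjusted p 0.0347). Dffb lost its call without control replicate 2 (computed change -0.93) and Endog without control replicate 2, 3 or 4 or silenced replicate 1 or 3 (-0.73 to -0.66).

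Among 12 genes whose products meet the BCL2 proteins at membranes or mark them for degradation, 4 fell and none rose. Over all genes 13.3% fell and 6.44% rose. At an unadjusted limma p under 0.05, 1 was higher, beside 12.3% of all genes. It was Vdac1, a channel of the outer mitochondrial membrane. Fkbp8, which anchors BCL2 and BCL-XL at mitochondria, was 14.60 to 15.19 in controls and 12.42 to 13.00 in silenced cells. Its fall of 1.99 (SE 0.22, limma adjusted p 0.000682) made the signal 3.97-fold lower, and was the largest change among the 44 genes in the limma fit. A second Fkbp8 probe fell by 2.34 and the last one changed by -0.12 and was not called. Tmbim6, a protein of the endoplasmic reticulum that counters BAX, fell by 1.12 (SE 0.29, limma adjusted p 0.0216), and Becn1, an autophagy protein that BCL2 binds, by 1.06 (SE 0.32, limma adjusted p 0.042). Tmbim6 lost its call without control replicate 1, 2 or 4 or silenced replicate 3 (-1.09 to -0.95). Becn1 lost its call when any array but control replicate 3 or silenced replicate 2 was left out (-1.06 to -0.91). Huwe1, the ubiquitin ligase for MCL1, fell by 0.94 (SE 0.19, limma adjusted p 0.0072) and is named here, like Vdac1, outside the naming rule, after its value was seen. Second probes of Tmbim6 and Huwe1 changed by 0.08 and -0.10 and were not called.

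The death receptor arm, with 8 genes tested, held 3 rises and 2 falls, beside 6.44% and 13.3% of all genes. Tnfrsf10b, the receptor for TRAIL, rose by 0.96 (SE 0.20, limma adjusted p 0.00892). Other probes of this gene changed by 0.39 and 0.76 and were not called. Tradd, an adaptor of the TNF receptor, rose by 0.64 (SE 0.20, limma adjusted p 0.0482). Fas rose by 1.50 (SE 0.48, limma adjusted p 0.0494), although its probe was well above background on 1 control and 3 silenced arrays. The calls of Tradd (0.56 to 0.67) and Fas (1.15 to 1.58) were lost when any array but control replicate 3 or silenced replicate 4 was left out. Casp8, which cleaves BID, fell by 1.37 (SE 0.27, limma adjusted p 0.00685), with values of 11.94 to 12.56 in controls and 10.40 to 11.36 in silenced cells. Ripk1, a kinase of the same complexes, fell by 1.0 (SE 0.22, limma adjusted p 0.0118), while a second Ripk1 probe changed by 0.23 and was not called.

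Of 9 transcription regulators of the family, 2 fell and none rose, beside 13.3% and 6.44% of all genes. At an unadjusted limma p under 0.05, 2 were higher, beside 12.3% of all genes. Trp53 encodes p53, which induces Bax, Bbc3 and Pmaip1, and fell by 1.38 (SE 0.40, limma adjusted p 0.0355), with control values from 10.73 to 12.67 that overlapped the silenced values of 10.42 to 11.02. That call was lost when any array but control replicate 3 or silenced replicate 2 was left out (-1.41 to -1.18). Trp73, a relative of p53, was well above background on all control and no silenced arrays, which puts the control signal at least 1.41-fold above the silenced one (limma adjusted p 0.00526). The 2 that were higher at an unadjusted p were Mdm2, the ligase that degrades p53, and Ddit3, a stress factor that induces Bcl2l11, with changes of 0.56 and 0.62 at their brightest probes, which were not called (limma adjusted p 0.0616 and 0.064). A dimmer probe of Mdm2 rose by 1.18 (limma adjusted p 0.0188), and a dimmer probe of Ddit3 fell by 1.16 (limma adjusted p 0.0295), so no direction is given for Ddit3.

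**Figure D4:**
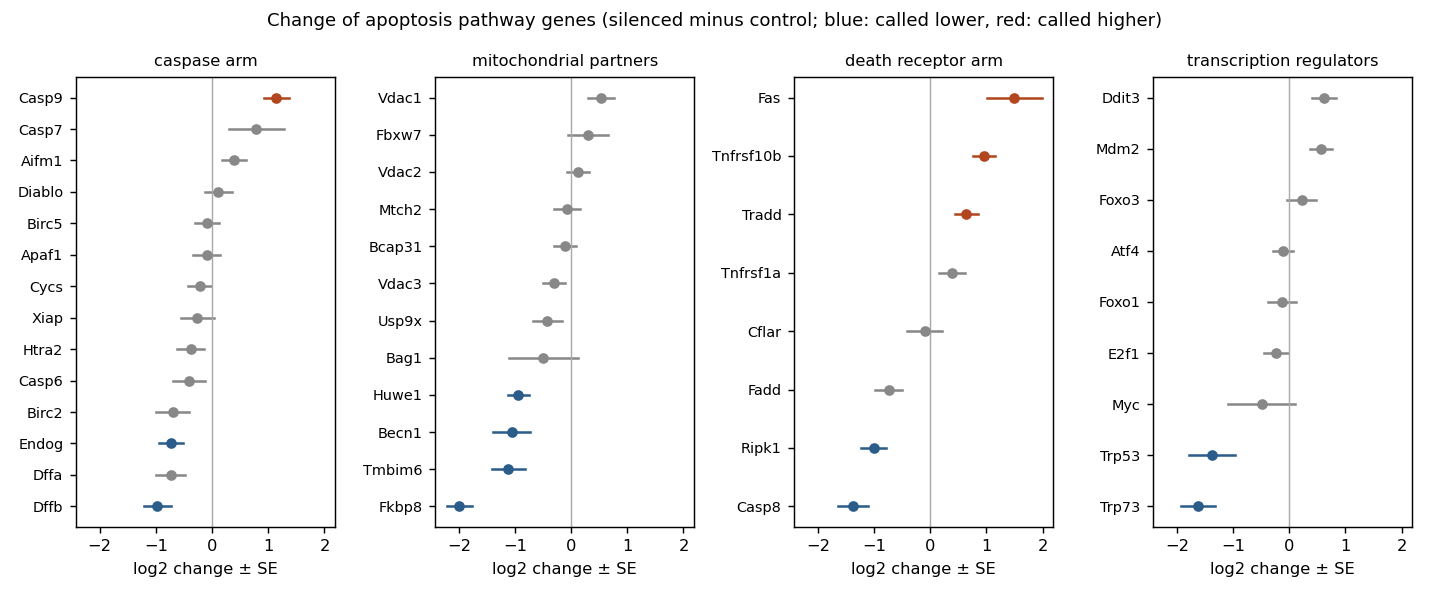
Change (silenced minus control, log2) of tested apoptosis pathway genes by their brightest probe, in 4 roles, with 1 of the 44 that was not called left out, with bars of 1 standard error. Blue genes were called lower and red higher. With quantile normalization, falls appear in every role, while the 4 rises are Casp9 and 3 death receptor genes. Cyclic loess called 10 higher, beside 23.8% of all genes.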

How the data were processed

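RNA of 4 control and 4 Pvt1-silenced C2C12 cultures was labelled with Cy3 and hybridised to 8 Agilent arrays on 1 slide, scanned once. The deposited scanner files hold the spot intensity and spot flags that the authors obtained with Agilent Feature Extraction (12.0.0.7 per the file headers, 10.7.3.1 per the submitters' processing notes). The deposited series table holds the authors' normalized intensity on a linear scale and was used as an alternative only. Columns of per-sample values left unmapped numbered 0. Positions are those of the array files, build mm9.

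Processed signals were masked where a spot was not positive and significant or was flagged as an outlier, log2 transformed and quantile normalized, and spots of one probe were averaged. Probes with at least 3 values in each group were tested with limma 3.58.1 in R 4.3.3 (lmFit and eBayes, silenced against control, no covariate). P-values were adjusted by the method of Benjamini and Hochberg over all 28649 tested probes or, for differences between probes, over all probe pairs (for means of the probes of a gene, over all genes), and called under 0.05. A gene was taken by its brightest probe, with that probe's adjusted p. Intervals are 95% intervals of the change. A probe well above background in only one group has a bound, its mean in the brighter group against the dimmer group's mean of the higher of the lowest well-above signal and its own. Named were all tested member probes and, per role of the pathway list, up to 3 genes called in each direction with the largest change. Bcl2l13, Huwe1, Vdac1, Mdm2 and Ddit3 were named after their values were seen. The members and gene lists were chosen with earlier results of these data known. The number of arrays limits the precision. The statistical code was tested on simulated data. Figures were drawn with matplotlib 3.10.9. Alternatives were other scalings, filters, priors, blocks and tests, and each array left out. One gene of the pathway list is counted but not reported here by name.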

Additional observations from a re-analysis of the deposited data

Results flagged for a closer look

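Silenced replicate 4 stood apart from the other 3 silenced arrays at 5 of the 20 silenced groups of 4 values screened (member and Pvt1 probes), by a gap to the nearest value that took up most of the group's range and passed Dixon's critical value, as chance alone does in about 1 of 20 groups. It read 7.62 against 8.16 to 8.26 for Bcl2 A_51_P380013, 4.62 against 5.91 to 6.13 for Bcl2l1 A_52_P510877, and 11.43 against 11.93 to 11.998 for Bax A_51_P254541. It read 12.71 against 13.15 to 13.16 for Bax A_55_P2137406 and 10.54 against 11.36 to 11.44 for Pmaip1. This was also the dimmest array, and the part of that in these values was not tested. The 5′ minus 3′ difference of Bax on this array (-1.28) lay close to those of the other silenced arrays (-1.22 to -1.16).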

How the results depend on the processing

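The limits of these results include 4 arrays a group, a slide whose rows held the groups unequally, and several probes near background. They also include the liver signal that separated the groups, whose part in these values was not tested. Member probes called higher numbered 2 with the 75th percentile shift (7.56% of all probes) and the stricter filter (6.49%). They also numbered 2 with the robust trended prior (6.47%) and the methods' t-test unadjusted (7.79%). They numbered 3 with cyclic loess (18.9%) and the authors' series table (9.86%), and 3 with no masking of dim spots (8.82%). Without both arrays that stood apart they numbered 3 (19.7%). With the slide row as a block 0 were called higher (1.86%) and 0 lower (8.98%). Leaving out 1 array gave 1 to 4 lower and 1 to 3 higher, beside 11% to 21.1% and 2.45% to 13% of all probes. Between arrays of the same replicate number, correlations of deviations were -0.04 to 0.22, and 2 of 4 silenced arrays were closest to their own number. With 4 arrays a group this cannot tell whether the numbers pair the samples. A replicate block called 2 member probes lower and 2 higher, beside 13.9% and 3.57% of all probes. Pathway genes called lower numbered 6 without masking and with the adjusted t-test and 4 with the slide row as a block. Those called higher numbered 10 with cyclic loess and the series table, 11 without masking, 2 with the slide row, 8 without both arrays and 7 with the unadjusted t-test. With 1 array left out they were 5 to 10 lower and 2 to 8 higher. Called member pairs numbered 4 under the stricter filter and 4 to 7 with 1 array left out, and 8 without both arrays. Changes near 0 that were not called turned sign. Bax A_55_P2137406 was 0.107 (75th percentile), 0.164 (cyclic loess), 0.0127 (normexp), 0.133 (series table), 0.149 (no masking), 0.0279 (slide row) and 0.171 (without both arrays). Pmaip1 was 0.126 (cyclic loess), 0.171 (series table), 0.175 (no masking), 0.0082 (slide row) and 0.195 (without both arrays). Bcl2l1 A_55_P2500448 was 0.0264 (cyclic loess), 0.085 (series table) and 0.0659 (no masking), and Bcl2l11 A_52_P158527 -0.0308 (75th percentile). With 1 array left out, changes ran from -0.259 to 0.437 for Bcl2 A_52_P534870, -0.0957 to 0.214 for Mcl1 A_55_P2740649, -0.103 to 0.0972 for Bax A_55_P2137406, -0.0329 to 0.128 for Bad, -0.109 to 0.192 for Pmaip1 and -0.23 to 0.583 for Bcl2l11 A_52_P158527. The cause of these moves was not tested.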
